A study of Mus musculus with 9 samples.

Results

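Gene expression in 1 Cdk8 knockout clone of YAMC cells, clone 1, was compared with expression in the parental YAMC line, with 3 RNA-seq libraries on each side. The comparison took in these 6 of the 9 libraries of the series and every gene with at least 1 RPKM (reads scaled to the length of the gene and the size of the library) in at least 3 of the 6, which were 12433 of 28059 gene IDs. The parental cells are labelled wildtype and the clone 1 cells Cdk8 -/-, a genotype made with CRISPR. Both were kept at 32 °C and collected in logarithmic growth. From general knowledge, YAMC cells came from the colon of young mice that carry a heat-sensitive T antigen, which keeps the cells dividing at the lower temperature. Clone 1 is a single clone, and no clone with intact Cdk8 was analysed here. Effects of losing Cdk8 and of picking a clone therefore cannot be told apart. Whether replicates came from separate cultures is not labelled, so each p-value reflects only the spread among these libraries, which may be technical.

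CDK8 is a cyclin-dependent kinase that, with cyclin C, MED12 and MED13, forms the kinase module of Mediator, the complex that links transcription factors to RNA polymerase II. The module binds Mediator reversibly and phosphorylates transcription factors and parts of the transcription machinery. In the intestine CDK8 is best known as a colorectal cancer oncogene that acts in Wnt signalling. It is also known to act on SMAD, Notch, p53, E2F1, hypoxia and serum responses and on SREBP, the driver of lipid synthesis genes. The question was which transcripts differ when Cdk8 is knocked out in these cells.

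The depth of the libraries, estimated from the smallest steps between low values, ran from 0.525 to 0.739 of that of parental replicate 1 in clone 1 and was 0.639 and 0.748 in parental replicates 2 and 3. Between 17974 and 18907 genes had a value above 0 per library. Over tested genes, none of them an independent replicate of another, log2 values correlated at 0.998 within the parental group, 0.997 to 0.998 within clone 1, and 0.963 to 0.965 between the groups. The labels place the cells in the small intestine. Of 17 absorptive intestinal markers 0 reached the expression filter, with a summed level of 0.29 to 0.402 RPKM across parental libraries and 0.701 to 0.901 RPKM in clone 1, and Cdx1 and Cdx2 were listed at 0 in all 6. Of 16 secretory markers 1 reached the filter, and of 22 epithelial markers 9 did. Epcam, an epithelial adhesion molecule, stayed between 0 and 0.251 RPKM and Cdh1 (E-cadherin) between 0.416 and 0.644 RPKM. By contrast 16 of 17 mesothelial markers and 17 of 20 mesenchymal markers reached the filter in these cells, while the defining intestinal markers were nearly absent in both groups. Of 18 immune markers 2 reached it, with a summed level of 5.09 to 5.73 RPKM in parental cells against 4.8 to 5.54 RPKM in clone 1, and Ptprc, the defining leukocyte marker, was listed at 0 in 5 of 6 libraries. Of endothelial, neural and muscle markers 3 of 12, 2 of 12 and 3 of 11 reached it.

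Clone 1 differed from the parental line at most genes, by small amounts. Of the 12433 genes, 9016 (72.5%) were called by limma at a Benjamini-Hochberg adjusted p under 0.05, 4961 higher (39.9%) and 4055 lower (32.6%) in clone 1, and the values of the 2 groups did not overlap for 9373 (75.4%). The median absolute log2 fold change was 0.22, and 6731 of the calls (74.7%) were smaller than 0.5 on the log2 scale, where fold changes are taken on log2(RPKM + 0.5). At 2-fold or more there were 223 genes higher (1.79%) and 334 lower (2.69%). At 2 or more on the log2 scale the falls outnumbered the rises, 54 to 16. Calls became more frequent with level, from 62.0% of genes at 1 to 3 RPKM to 83.5% of those at 100 RPKM or above, whereas calls of 2-fold or more became fewer, from 8.70% to 2.04%. The filter had a part in the large changes. There were 144 genes at 1 RPKM or more in all clone 1 libraries and in 0 parental ones, and 261 of the opposite kind, and these 2 kinds held 52 and 125 of the 557 genes that changed 2-fold. Among the 11681 genes at 1 RPKM or more in all 6 libraries, 72.3% were called and 351 changed 2-fold.

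**Figure D1:**
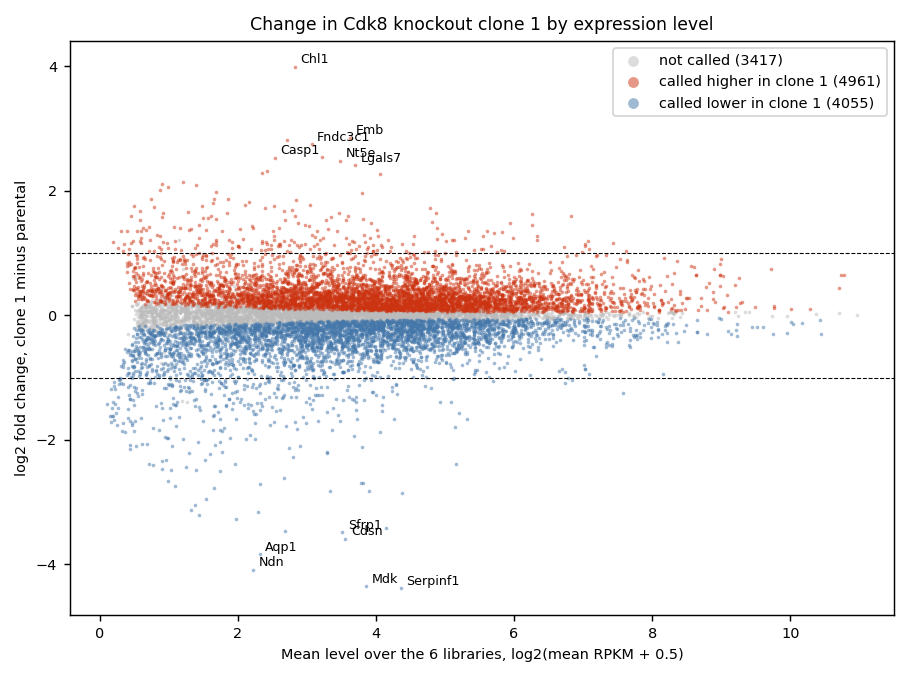
Each point is 1 of the 12433 tested genes, with its mean level over the 6 libraries as log2(mean RPKM + 0.5) on the x axis and its log2 fold change, clone 1 minus parental, on the y axis. Red and blue points are the 4961 genes called higher and the 4055 called lower, grey points the 3417 not called, and dashed lines mark 2-fold. Among genes with a name the largest changes sit at low to middle levels, from Chl1 at 3.99 to Serpinf1 at -4.38.

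The kinase module itself shifted little beyond Cdk8. Cdk8 measured 17.5, 17.7 and 17.5 RPKM in parental cells against 10.3, 11.1 and 11.6 RPKM in clone 1, the parental values being given first here and throughout, with a log2 fold change of -0.66 ± 0.04 (SE, adjusted p = 1.61e-06, limma). All clone 1 libraries were below all parental ones, and the clone 1 mean was 0.624 of the parental mean, so the RNA follows the label in direction, with no measure of the protein left. Ccnc, which encodes cyclin C, the activating partner, fell by 0.29 on the log2 scale, and Med13l, 1 of the subunits that tie the module to Mediator, rose by 0.24. Cdk19, the paralogous kinase, stood at 8.45, 8.22 and 7.93 RPKM and 8.54, 8.18 and 8.42 RPKM and did not pass the test (log2 fold change 0.03). It lies in a run of neighbouring genes that were lower in clone 1, and with the median change of its 50 nearest tested genes subtracted in each library it was called higher (0.30). Med12 (-0.10) and Med13 (-0.14) did not pass either. Their calls changed without clone 1 replicate 1, where both were called lower, at -0.16 and -0.22. With the neighbours subtracted Med12 was called lower (-0.27) and Med13 stood at 0.02. Of the 6 tested members 1 rose and 2 fell (16.7% and 33.3%, beside 39.9% and 32.6% of all tested genes).

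The largest rises included genes of adhesion, secreted signals and neuronal structure, while the neuronal gene Nsg1 was among the largest falls. Chl1, a neural cell adhesion molecule of the L1 family, went from 0.379, 0.365 and 0.285 RPKM in the parental libraries to 13.5, 12.3 and 12.8 RPKM in clone 1. It was near absent in every parental library and the groups were far apart, at 3.99 ± 0.06 (SE) on the log2 scale. The 15 largest rises and 15 largest falls were taken from called genes with a name whose 2 groups do not overlap. Their separation was thus fixed by the choice, and some genes passed over rose by 2 or more on the log2 scale. Of these 15 rises 7, Chl1 among them, were below 1 RPKM in all parental libraries. Of the 15 falls 10 were below 1 RPKM in all clone 1 libraries. These 17 passed the filter only through the group where they are high, so they are described without a p-value. Where values lie below about 0.5 RPKM the log2 fold change also understates the ratio of the RPKM means, because 0.5 was added before the log. Embigin, the product of Emb, is an adhesion protein that also escorts lactate transporters to the membrane, and its transcript measured 2.54, 2.82 and 2.19 RPKM and 21.4, 21.2 and 21.1 RPKM. Fndc3c1, a fibronectin type III domain gene, measured 1.75, 1.62 and 1.66 RPKM against 14.1, 14.1 and 14.2 RPKM, and Casp1, the inflammatory caspase, 1.21, 0.983 and 1.48 RPKM against 9.1, 9.47 and 9.6 RPKM. The log2 fold changes of these 2 genes were 2.75 and 2.53. Nt5e, the ectoenzyme CD73 that makes extracellular adenosine, went from 2.95, 2.64 and 3.11 to 18.3, 18.9 and 18.1 RPKM. Lgals7, a galectin of stratified epithelia, went from 3.79, 3.62 and 3.44 to 22.6, 21.2 and 20.3 RPKM. Map2, a microtubule-associated protein of neurons, went from 1.22, 1.36 and 1.3 to 8.61, 8.15 and 8.62 RPKM. These 3 genes each rose by more than 2 on the log2 scale.

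Secreted ligands were among the rises as well. Bmp2, a bone morphogenetic protein, measured 1.3, 1.25 and 1.19 RPKM in parental cells against 7.84, 8.05 and 8.09 RPKM in clone 1 (log2 fold change 2.28 ± 0.05, adjusted p = 4.09e-09, limma). Fgf10, a mesenchymal growth factor that signals to epithelium, measured 0.5, 0.488 and 0.503 RPKM and 3.95, 3.83 and 3.5 RPKM (2.10). Fgf10 was below 1 RPKM in every parental library. Tmem47, Cend1, Nexmif and Sorcs1, a sorting receptor of neurons, were all below 0.5 RPKM in every parental library. In clone 1 Sorcs1 measured 2.55, 2.28 and 2.52 RPKM and Tmem47 3.37, 3.08 and 3.3 RPKM, and the 4 genes rose by 2.14, 2.10, 2.06 and 2.01 on the log2 scale. H1f2, a linker histone, measured 5.26, 5.33 and 5.08 RPKM and 26.6, 28.4 and 26.1 RPKM, but it belongs to a family of near-identical genes whose reads may have been split between copies. Mir1895, at 0.573, 0.896 and 0.765 RPKM and 2.72, 7.36 and 4.02 RPKM, spread widely in clone 1, and an RPKM of so short a gene rests on few reads. The rise of Mir1895 (log2 fold change 1.97) was the least precise of the 15, with an SE of 0.27.

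The largest falls were in genes of secreted and cell surface proteins. Serpinf1, which encodes the secreted anti-angiogenic serpin PEDF, measured 37.8, 39 and 39.4 RPKM in parental cells against 1.44, 1.27 and 1.43 RPKM in clone 1, so that its mean was 28.1 times lower (-4.38 ± 0.05, SE, on the log2 scale, adjusted p = 2.73e-10, limma). Midkine, from Mdk, is a heparin-binding growth factor, and Mdk measured 26.2, 27 and 28.2 RPKM and 0.791, 0.914 and 0.852 RPKM, 31.8 times lower. Aqp1, a water channel, measured 8.42, 9.3 and 8.7 RPKM and 0.14, 0.211 and 0.104 RPKM. Each of these 3 genes was below 1.5 RPKM in every clone 1 library. Cdsn, corneodesmosin of cornified epithelium, fell from 21.2, 21.5 and 21.1 RPKM to 1.19, 1.46 and 1.29 RPKM. Sfrp1, a secreted Wnt antagonist, fell from 20.6, 20.6 and 20.2 RPKM to 1.62, 1.16 and 1.37 RPKM, and Sdc3, a heparan sulfate proteoglycan of the cell surface, from 11.5, 11.1 and 11.2 RPKM to 0.502, 0.603 and 0.601 RPKM. Their log2 fold changes were -3.59, -3.48 and -3.46. Mdk and Cdsn lie in runs of neighbouring genes that were lower in clone 1, and with the neighbours subtracted they stood at -4.06 and -3.20.

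Receptors fell alongside these. Fgfr1, a receptor of fibroblast growth factors, measured 8.31, 8.43 and 8.11 RPKM in parental cells against 0.559, 0.459 and 0.444 RPKM in clone 1 (log2 fold change -3.16 ± 0.06, SE). Ackr3, a chemokine scavenger receptor, measured 6.53, 6.56 and 6.8 RPKM and 0.284, 0.214 and 0.222 RPKM (-3.27 on the log2 scale, with a ratio of the means of 27.7). Apln, the peptide ligand apelin, measured 4.51, 4.67 and 4.75 RPKM and 0.109, 0.214 and 0.182 RPKM (-2.95, with a ratio of 27.6). All 3 were below 0.6 RPKM in every clone 1 library. Nsg1, a neuronal endosomal protein, measured 32.1, 32 and 31.4 RPKM and 2.59, 2.26 and 2.72 RPKM, and Gsta4, a glutathione transferase that removes products of lipid peroxidation, 35.4, 37.4 and 35.2 RPKM and 4.13, 4.95 and 4.65 RPKM. These 2 stayed measurable in clone 1, at 12.6 and 7.87 times below the parental mean.

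**Figure D2:**
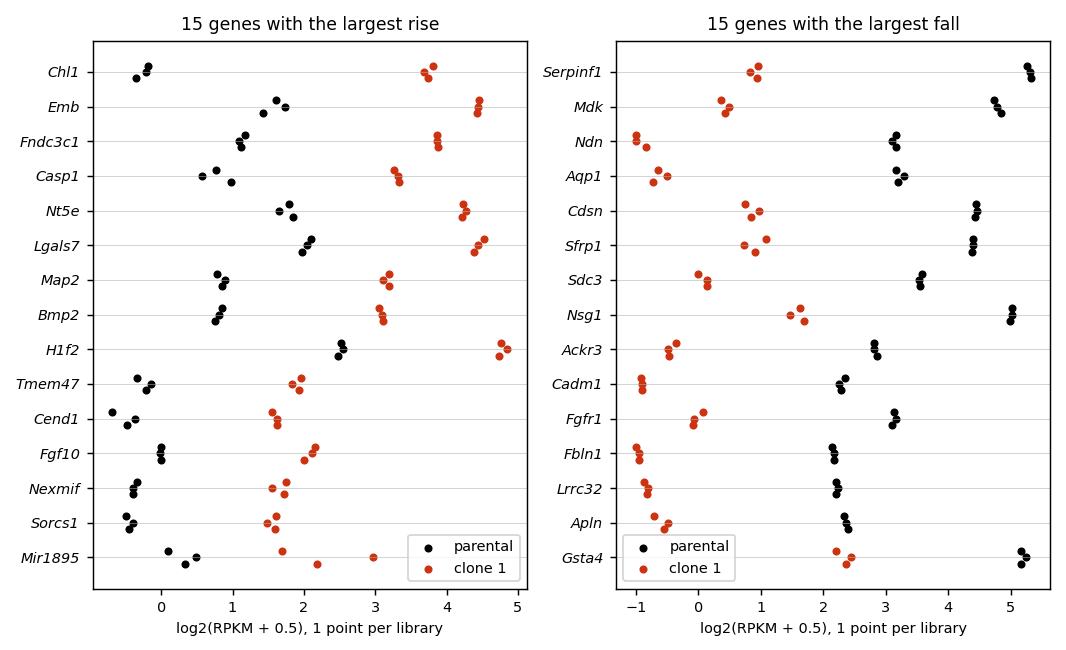
Each point is 1 library, with log2(RPKM + 0.5) on the x axis and the 15 genes with the largest rise (left) and fall (right) in rows; black points are parental and red points clone 1 libraries. The genes were taken from called genes with a name whose 2 groups do not overlap, so in all 30 the groups are apart by choice. The widest spread within clone 1 is that of Mir1895, from 2.72 to 7.36 RPKM.

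The promoters of the genes at both ends of the range are shown because the stretch before a gene's start is where Mediator meets the transcription machinery, and because they differ in the number of CG dinucleotides, whose density separates promoter classes. Promoters are RefSeq windows of GRCm38.p6, 250 bases before to 50 after the start, 5′ to 3′ along the gene, in lower case with each CG in capitals. Mdk is named without a promoter.
Chl1 (GRCm38.p6, chr6:103510626-103510925, plus strand): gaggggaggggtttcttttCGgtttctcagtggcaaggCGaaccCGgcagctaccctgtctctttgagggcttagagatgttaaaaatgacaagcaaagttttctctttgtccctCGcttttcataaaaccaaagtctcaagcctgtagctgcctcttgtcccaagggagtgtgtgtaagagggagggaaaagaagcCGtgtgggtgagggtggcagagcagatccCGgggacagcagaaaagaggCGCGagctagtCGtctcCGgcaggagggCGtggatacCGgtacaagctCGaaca
Emb (GRCm38.p6, chr13:117220323-117220622, plus strand): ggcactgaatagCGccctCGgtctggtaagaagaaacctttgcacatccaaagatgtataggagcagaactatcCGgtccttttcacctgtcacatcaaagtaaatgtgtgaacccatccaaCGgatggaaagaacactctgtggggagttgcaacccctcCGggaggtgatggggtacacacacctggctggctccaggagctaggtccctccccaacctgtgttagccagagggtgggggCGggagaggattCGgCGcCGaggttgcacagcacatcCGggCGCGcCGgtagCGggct
Serpinf1 (GRCm38.p6, chr11:75422574-75422873, minus strand): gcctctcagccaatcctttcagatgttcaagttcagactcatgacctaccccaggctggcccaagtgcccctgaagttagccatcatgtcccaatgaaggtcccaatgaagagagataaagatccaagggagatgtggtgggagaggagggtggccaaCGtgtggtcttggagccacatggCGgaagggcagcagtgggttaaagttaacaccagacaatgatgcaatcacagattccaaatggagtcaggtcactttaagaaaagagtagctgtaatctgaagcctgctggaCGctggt
Ndn (GRCm38.p6, chr7:62348027-62348326, plus strand): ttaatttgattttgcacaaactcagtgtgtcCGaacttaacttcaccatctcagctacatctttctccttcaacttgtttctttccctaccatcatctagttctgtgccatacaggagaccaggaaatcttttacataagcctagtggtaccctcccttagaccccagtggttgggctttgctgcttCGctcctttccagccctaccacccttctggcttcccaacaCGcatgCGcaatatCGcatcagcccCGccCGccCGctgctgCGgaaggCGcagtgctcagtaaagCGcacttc

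Chl1 and Emb had 13 and 14 CG dinucleotides in these windows, Serpinf1 3 and Ndn 11. Over the 11371 promoters of 8931 tested genes the median was 21, with quartiles of 13 and 29. The 2973 promoters of genes not called had the same median of 21. Promoters of genes at least 2-fold higher in clone 1 had a median of 15.5 (214 promoters) and those of genes at least 2-fold lower 14.5 (264 promoters). Large changes in either direction thus went with fewer CG dinucleotides than the tested promoters at large. This is a description with no test, and genes of low level, at which 2-fold calls were more frequent, were not set apart.

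Among abundant transcripts the shifts were moderate but moved much RNA. Tmsb4x, the actin-binding peptide thymosin beta 4, measured 1354, 1356 and 1380 RPKM in parental cells against 2075, 2141 and 2166 RPKM in clone 1, the largest gain in level. S100a6, a calcium-binding protein, went from 1406, 1432 and 1430 to 1894, 1942 and 1915 RPKM, and Crip1, a LIM domain protein, from 629.6, 627 and 629.9 to 1038, 1085 and 1048 RPKM. The groups were apart in all 3 genes. Upk3b and Upk1b, uroplakins that mesothelium also makes, also gained: Upk3b went from 352, 356 and 356 RPKM to 661, 683 and 655 RPKM and Upk1b from 365, 361 and 364 RPKM to 639, 655 and 639.7 RPKM. Anxa1, the phospholipid-binding annexin A1, went from 492, 479 and 493 to 718, 748 and 748 RPKM. On the side of losses, Lgals1, galectin 1, went from 1507, 1546 and 1561 to 1224, 1285 and 1251 RPKM (log2 fold change -0.30). Col1a1, a chain of type I collagen, went from 369.9, 391 and 364 to 198, 194 and 192 RPKM (-0.94), and Ly6a, the surface antigen Sca-1, from 265, 274 and 262 to 109, 113 and 115 RPKM (-1.24). The parental means of Col1a1 and Ly6a were 1.93 and 2.38 times those of clone 1. Hsp90ab1 (-0.28), Tubb5 (-0.33) and Eef2 (-0.30), a chaperone, a tubulin and a translation factor, also lost RPKM, but all 3 lie among neighbours that fell as much. With the neighbours subtracted their changes were 0.00, 0.04 and 0.09.

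Some genes dropped to the edge of detection in clone 1. The rule was at most 0.1 RPKM in all clone 1 libraries and at least 1 RPKM in all parental ones. Among genes with a name 17 met it, against 0 in the opposite direction. The rule used the values of both groups, so these levels are a description. Ndn, which encodes necdin, a growth suppressor expressed from the paternal allele only, measured 8.49, 8.04 and 8.44 RPKM and then 0, 0 and 0.0577 RPKM. Cadm1, an immunoglobulin adhesion molecule, measured 4.59, 4.25 and 4.4 RPKM and 0.0294, 0.0349 and 0.0362 RPKM, and Fbln1, the matrix protein fibulin 1, 3.92, 3.99 and 4 RPKM and 0, 0.0182 and 0.0189 RPKM. All 3 were steady in the parental libraries and at or near 0 in each clone 1 library. Lrrc32, which encodes GARP, an anchor of latent TGF-beta, measured 4.11, 4.23 and 4.13 RPKM and 0.0451, 0.0722 and 0.0666 RPKM. Ccn5, a matricellular protein, measured 2.84, 2.87 and 3.1 RPKM and 0.0243, 0.0518 and 0.0538 RPKM, and Syk, a tyrosine kinase of immune receptors, 2.32, 2.42 and 2.36 RPKM and 0, 0.0639 and 0.0543 RPKM. Tlx3, a homeobox factor, was at 1.84, 1.92 and 1.4 RPKM in parental cells and listed at 0 in all 3 libraries of clone 1. Cda (cytidine deaminase), Tnn (tenascin N) and Adamts14 (a procollagen protease) were at 1.4 to 2.5 RPKM and then at most 0.0735 RPKM. Fold changes of genes this close to 0 depend on the value of 0.5 added before the log and are left out here. The rest were Adam19, Adora2b, Bach2, Ltbp2, Shc2, Sorbs2 and Sox9.

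Members of the pathways in which CDK8 is known to act moved in both directions, and most lists stayed near the background. Of 40 tested Wnt genes 21 rose and 15 fell (52.5% and 37.5%, beside 39.9% and 32.6% of all tested genes), with a median of 0.09 beside 0.03 for all genes. Of 6 ligands 5 rose: Wnt2b went from 0.348, 0.377 and 0.457 to 1.72, 2 and 1.7 RPKM, and Wnt3 rose by 1.35 on the log2 scale, while Wnt4 fell by 1.17. Rspo1, a secreted agonist, went from 6.42, 6.95 and 6.4 to 17, 16.3 and 15.3 RPKM. Sfrp1, described above, and Ror2, a receptor of Wnt5a, went the other way, Ror2 from 3.56, 3.5 and 3.44 to 0.228, 0.27 and 0.232 RPKM. Wnt2b and Wnt3 passed the filter only through the clone 1 libraries, and Ror2 only through the parental ones. In these genes that by itself sets the 2 groups apart. The 8 tested targets were split 4 to 4, with Ccnd1 (cyclin D1) at 129.6, 132 and 129 RPKM and then 70.5, 70.0 and 69.1 RPKM and Axin2, a negative feedback gene, at 0.16 on the log2 scale. The rise of Axin2 was not called without parental replicate 2, parental replicate 3 or clone 1 replicate 2 and became -0.11 with the neighbours subtracted. The median of the Wnt list went to -0.02 in that setting. In the Notch list, 7 of 19 genes rose and 6 fell. Notch1 (receptor) fell from 4.83, 5.24 and 4.39 to 2.45, 1.91 and 2.17 RPKM while Jag1 (ligand) rose from 2.92, 3.23 and 2.92 to 5.7, 5.2 and 5.29 RPKM.

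In the TGF-beta and BMP list, 19 of 49 genes rose and 23 fell, and the falls gathered in proteins that store or block the ligands. Of 10 genes for latency proteins and antagonists 8 fell and 1 rose, with a median of -1.34. Ltbp1, which tethers latent TGF-beta to the matrix, measured 23.7, 23.4 and 22.7 RPKM in parental cells against 2.98, 3.27 and 3.3 RPKM in clone 1. The BMP antagonist Grem1 measured 1.88, 1.36 and 1.94 RPKM and 0.184, 0.0747 and 0.0776 RPKM, and Fst, the activin antagonist follistatin, 9.97, 9.41 and 9.25 RPKM and 2.3, 2.61 and 2.41 RPKM. Ltbp1 and Fst did not overlap, Grem1 passed the filter only through the parental libraries, and Lrrc32 was described above. Among ligands 6 of 11 rose and 4 fell, with Bmp2 the largest rise. Among targets 3 of 11 rose and 6 fell (all tested genes, 39.9% higher and 32.6% lower), and Tgfbi, a secreted matrix protein, fell by 1.70 on the log2 scale. With only genes of at least 3 RPKM the median of the list went from -0.07 to 0.08.

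Single genes of inflammation and stress responses moved both ways. The antiviral enzyme gene Rsad2 rose from 4.83, 5.66 and 4.7 to 12.8, 12.1 and 11.9 RPKM. Tgtp1, a GTPase of interferon responses, fell by 1.17 on the log2 scale. Of 28 NF-kB genes 12 rose and 11 fell (42.9% and 39.3%, beside 39.9% and 32.6% of all tested genes). Il33 stood at 1.49 and Ccl7 at -1.40. The p53 list had 16 of 33 higher and 13 lower (48.5% and 39.4%). Of its 10 targets in cell cycle control 7 rose, and Cdkn1a, the inhibitor p21, went from 5.07, 5.21 and 5.57 to 8.84, 8.19 and 8.55 RPKM. Perp, a p53 target of desmosomes, went from 7.32, 7.8 and 7.57 to 15.6, 15.7 and 15.8 RPKM. Of 23 YAP and TAZ genes 13 rose and 6 fell (56.5% and 26.1%), with Nt5e and Ccn2, both known targets, at opposite ends (2.48 and -2.27).

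Proliferation genes did not shift as a block. In the E2F and DNA replication list 15 of 45 rose and 22 fell, most by little, with E2f1 at 18.9, 19.9 and 19.5 RPKM and then 12.2, 12.6 and 11.6 RPKM and Rrm2, a subunit of ribonucleotide reductase, at 117, 120.2 and 119 RPKM and then 186, 188 and 189 RPKM. Of 39 cell cycle regulators 15 rose and 16 fell. Among 10 kinases 1 rose and 7 fell. Of 12 cyclins 6 rose and 5 fell, and of 12 mitosis genes 6 rose and 3 fell, beside 39.9% and 32.6% of all tested genes. In the serum response and AP-1 list 7 of 34 genes rose and 20 fell, with a median of -0.16 (20.6% and 58.8%, beside 39.9% and 32.6%). Of 9 AP-1 subunits 7 fell and 0 rose, led by Fosl1 at -0.98. Of 14 early growth response genes 9 fell, and Dusp5, a nuclear ERK phosphatase, rose by 0.85. The hypoxia list had 12 of 35 higher and 16 lower, with Car12 at -1.70 and Angptl4 at 1.13. Car12 passed the filter only through the parental libraries.

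Cholesterol synthesis genes rose together and glutathione genes fell together. In the cholesterol list 24 of 33 tested genes rose and 5 fell (72.7% and 15.2%, beside 39.9% and 32.6% of all tested genes). The median was 0.38. Of 20 enzymes 18 rose. Cyp51, lanosterol demethylase, measured 25.1, 25.1 and 23.1 RPKM in parental cells against 42.2, 43.3 and 43.9 RPKM in clone 1. Msmo1, a sterol oxidase, measured 36.6, 37.5 and 37.4 RPKM and 58.7, 60.2 and 62.2 RPKM, and Mvd, which acts in the mevalonate steps, 7.56, 6.84 and 7.56 RPKM and 11.5, 12.7 and 12.6 RPKM. The rises were of like size, all without overlap and short of 2-fold. Srebf2, the factor that drives these genes, measured 51.7, 51.1 and 50.2 RPKM and 86.5, 84 and 84 RPKM, and Abca1, which exports cholesterol, fell from 2.27, 2.28 and 2.02 to 1.15, 0.91 and 0.979 RPKM. Of 17 fatty acid synthesis enzymes 12 rose and 2 fell.

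The promoters of 4 of these enzymes, chosen by a fixed rule on fold change, are shown because the genes moved together. Capitals mark matches on either strand to TCACNCCAC (a sterol element), TGANTCA (an AP-1 site) or CACGTG (an E-box). Cyp51 and Mvd have no match to these strings.
Cyp51 (GRCm38.p6, chr5:4104648-4104947, minus strand): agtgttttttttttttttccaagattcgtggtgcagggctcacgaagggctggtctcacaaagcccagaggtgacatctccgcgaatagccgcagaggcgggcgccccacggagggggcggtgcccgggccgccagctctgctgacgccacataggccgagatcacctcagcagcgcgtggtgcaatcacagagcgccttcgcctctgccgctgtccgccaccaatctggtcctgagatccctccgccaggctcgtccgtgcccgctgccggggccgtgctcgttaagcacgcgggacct
Hsd17b7 (GRCm38.p6, chr1:169969156-169969455, minus strand): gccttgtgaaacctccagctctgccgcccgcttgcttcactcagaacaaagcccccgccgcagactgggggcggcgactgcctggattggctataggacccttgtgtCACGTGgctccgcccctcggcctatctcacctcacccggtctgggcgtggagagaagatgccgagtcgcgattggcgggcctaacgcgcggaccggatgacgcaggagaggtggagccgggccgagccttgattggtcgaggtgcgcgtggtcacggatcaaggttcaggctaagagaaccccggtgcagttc
Mvd (GRCm38.p6, chr8:122443373-122443672, minus strand): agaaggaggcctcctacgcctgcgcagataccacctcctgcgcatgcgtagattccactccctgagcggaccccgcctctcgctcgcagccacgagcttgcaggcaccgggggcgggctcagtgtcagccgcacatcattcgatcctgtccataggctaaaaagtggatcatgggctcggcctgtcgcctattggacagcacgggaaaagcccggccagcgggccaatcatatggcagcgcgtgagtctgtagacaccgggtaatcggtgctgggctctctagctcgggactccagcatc
Msmo1 (GRCm38.p6, chr8:64733529-64733828, minus strand): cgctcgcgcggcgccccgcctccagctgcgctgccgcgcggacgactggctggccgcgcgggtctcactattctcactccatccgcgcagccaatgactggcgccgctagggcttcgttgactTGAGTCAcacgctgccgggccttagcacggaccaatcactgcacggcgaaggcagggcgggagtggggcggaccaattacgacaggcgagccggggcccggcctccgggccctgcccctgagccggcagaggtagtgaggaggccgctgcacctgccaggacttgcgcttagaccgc

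The sterol string was in 0 of 34 promoters of the cholesterol list, against 1.24% of all 32851 promoters. At so low a share 34 promoters are too few for the 0 to show a lack. Other forms of the element were not searched. Hsd17b7 held an E-box, which 7 of the 34 promoters (20.6%) and 10.3% of the promoters of tested genes had (7.15% of all promoters), and Msmo1 held an AP-1 site, found in 3 of 34 (8.82%) and in 4.95% of the promoters of tested genes (7.81% of all promoters). A match is a string of letters, not a measured site. In the serum response list 0 of 37 promoters held the AP-1 string and 7 (18.9%) the E-box.

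The glutathione and NRF2 list was lower almost throughout. Of 27 tested genes 22 fell and 1 rose (81.5% and 3.70%, beside 32.6% and 39.9% of all tested genes), with a median of -0.31. Gsta4 led it. Nqo1, a quinone reductase and a standard NRF2 target, measured 26.2, 26.8 and 23.6 RPKM in parental cells against 10.6, 11.6 and 11.4 RPKM in clone 1. Slc7a11, the cystine importer, measured 4.21, 3.71 and 4.03 RPKM and 1.79, 1.46 and 1.71 RPKM, and Txnrd1, thioredoxin reductase, 153, 152 and 156 RPKM and 76, 73.7 and 73.5 RPKM. Each fell by slightly more than 1 on the log2 scale with no overlap. The exception was Gpx1, a glutathione peroxidase, at 0.08, whose call ended with median-ratio scaling (0.04). With the neighbours subtracted 22 genes were lower and 0 higher. Slc7a11 also belongs to the targets of the stress factor ATF4, of which 13 of 19 fell and 4 rose. Cth, cystathionine gamma-lyase, which makes cysteine, went from 24.4, 24.4 and 24.2 to 8.91, 8.47 and 8.69 RPKM, and Vldlr, a lipoprotein receptor, fell by 1.34 on the log2 scale. Of 13 chaperone targets of the unfolded protein response 8 rose and 2 fell, and Xbp1, a factor of that response, went from 34.3, 35.2 and 35.5 to 71.4, 72.8 and 70.1 RPKM.

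Of 53 respiratory chain genes 38 rose and 8 fell (71.7% and 15.1%, beside 39.9% and 32.6% of all tested genes). The median was 0.19, so that most of the rises were small. Cox4i1, a subunit of cytochrome oxidase, measured 312, 306 and 314 RPKM in parental cells against 460.3, 501 and 492 RPKM in clone 1 (0.64). It lies in a run of neighbours that were higher, and with these subtracted it stood at 0.23. In that setting 28 of the 53 genes were higher and 1 lower, and Ndufs7 and Ndufs3, subunits of complex I at -0.29 and -0.29, went to 0.07 and 0.02. Of 10 tested genes of extracellular adenosine and lactate 4 rose and 6 fell (40% and 60%, beside 39.9% and 32.6%). Their median of -0.13 became 0.06 with the neighbours subtracted. Of the 5 adenosine genes 1 rose and 4 fell, and of the 5 lactate genes 3 rose and 2 fell. Slc16a3, the lactate transporter MCT4, went from 45.3, 47.3 and 47.4 RPKM to 111, 116 and 112 RPKM. Slc16a1, the transporter MCT1, went from 65.5, 65.6 and 64.3 RPKM to 118, 119 and 118 RPKM, and Emb rose as given above. Adora2b, an adenosine receptor, went from 1.29, 1.13 and 1.1 to 0, 0.0664 and 0.069 RPKM, opposite to Nt5e. Adora2b passed the filter only through the parental libraries.

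**Figure D3:**
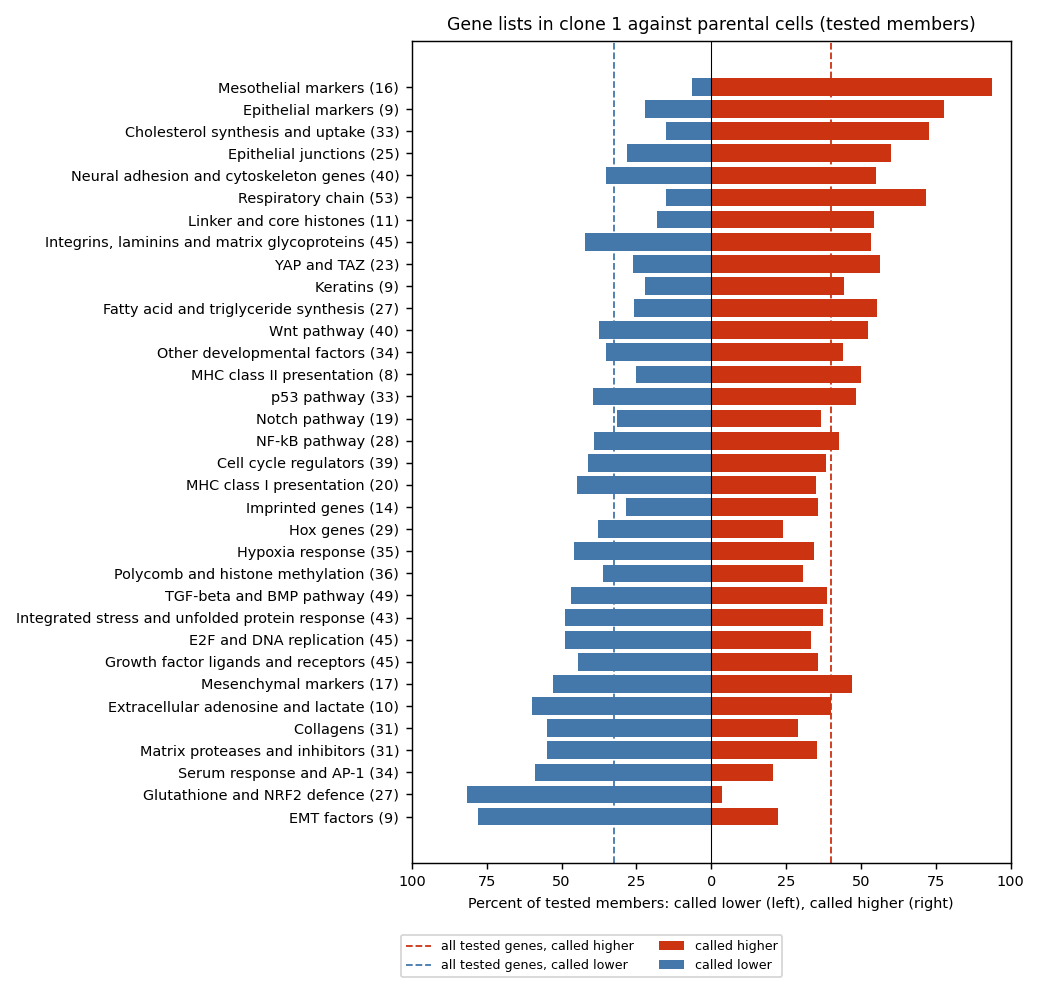
Bars give the percent of tested members of each list (number in brackets) called higher (right, red) or lower (left, blue) in clone 1, in the order of the lists' medians; all but 1 of the lists with at least 8 tested members are drawn. Dashed lines are the shares over all 12433 tested genes, 39.9% higher and 32.6% lower. Mesothelial markers (93.8% higher), epithelial markers (77.8% higher) and cholesterol genes (72.7% higher) stand at the top, and glutathione genes (81.5% lower) and EMT factors (77.8% lower) at the bottom.

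Markers of mesothelium rose almost as a whole. Of 16 tested mesothelial markers 15 rose and 1 fell (93.8% and 6.25%, beside 39.9% and 32.6% of all tested genes). Their median was 0.81, and their summed level was 1965 to 1980 RPKM across parental libraries and 3358 to 3448 RPKM in clone 1. Lrrn4, a membrane protein of mesothelial cells, measured 55.9, 55.6 and 55.4 RPKM and 169.8, 171 and 169 RPKM (1.60 ± 0.02, SE, adjusted p = 2.73e-10, limma). Wt1, the zinc finger factor of mesothelium and kidney, measured 79.3, 82.5 and 78.5 RPKM and 157, 159 and 157 RPKM, and Podxl, the sialomucin podocalyxin, 82.1, 82.1 and 80.2 RPKM and 188, 185 and 188 RPKM. Gpm6a, a membrane glycoprotein, measured 82, 81 and 79.4 RPKM and 178, 177 and 182 RPKM. In these 4 genes the clone 1 libraries were about 2 to 3 times above the parental ones, and both groups were tight. Msln (mesothelin) was the exception, at 114, 108 and 112 RPKM and then 80.5, 84.7 and 82.5 RPKM. It lies among lower neighbours and stood at -0.07 with these subtracted, where 14 of the 16 markers were higher and 2 lower. Calb2 (calretinin), another defining marker, was listed at 0 in all 6 libraries. Of the markers, Krt8, Krt18 and Krt19, are keratins of simple epithelia in general. They rose by 0.78, 0.65 and 0.78, whereas Krt7, a further simple keratin, fell from 21, 22.9 and 22.4 to 5.1, 4.5 and 4.63 RPKM. Of 9 keratins tested 4 rose and 2 fell. In bulk RNA a change in the share of cells of a kind and a change in RNA per cell cannot be told apart.

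Transcription factors of epithelial-mesenchymal transition (EMT) were mostly lower. Of 9 tested list members 7 fell and 2 rose (77.8% lower and 22.2% higher, against 32.6% and 39.9% of all tested genes), with a median of -0.54. The other rise beside Zeb1 was that of Esrp2 (0.30), an epithelial splicing regulator, whose call ended with the neighbours subtracted (0.16). Snai1 measured 6.56, 6.64 and 6.47 RPKM in parental cells against 1.65, 1.83 and 2.06 RPKM in clone 1, and Snai2, the related repressor Slug, 16, 16.2 and 16.3 RPKM and 6.77, 6.46 and 7.1 RPKM. Both fell to less than 0.5 of their parental level. Zeb1 rose from 6.2, 5.81 and 5.71 to 8.38, 7.91 and 8.12 RPKM. Of 25 epithelial junction genes 15 rose and 7 fell, with a median of 0.31. Lsr, a tricellular junction protein, and Dsg2, a desmosomal cadherin, rose by 0.92 and 0.91, against the fall of Cdsn. The mesenchymal markers were split, 8 higher and 9 lower of 17. Postn, the matrix protein periostin, fell by 1.30 and Pdgfra, a PDGF receptor of fibroblasts, by 1.06, while S100a4 and Dcn rose by 0.91 and 0.84. Postn and Pdgfra passed the filter only through the parental libraries.

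In the matrix, more collagen and protease genes fell than rose. Of 31 genes for collagen chains and collagen enzymes 9 rose and 17 fell (29.0% and 54.8%, beside 39.9% and 32.6% of all tested genes). Of the 13 enzymes 3 rose and 8 fell. Among chains, 3 of 7 fibrillar ones rose and 3 fell, and 3 of 5 network ones rose and 1 fell. Of 6 beaded and associated chains 0 rose and 5 fell. Col6a3, of beaded filaments, measured 8.4, 8.71 and 7.94 RPKM in parental cells against 2.31, 2.04 and 2.26 RPKM in clone 1. The 2 chains of type I collagen went opposite ways, since Col1a1 fell and Col1a2 rose, from 64.1, 65.1 and 61.9 to 92.2, 89.1 and 89.6 RPKM. Of 31 proteases and inhibitors 11 rose and 17 fell (35.5% and 54.8%). Mmp3 (stromelysin) went from 4.56, 4.66 and 4.72 to 0.621, 0.901 and 0.635 RPKM and Mmp13, a collagenase, from 4.79, 4.99 and 4.15 to 13.8, 15.1 and 15.5 RPKM. Mmp3 passed the filter only through the parental libraries. Of 6 laminin chains 5 rose and 0 fell, and of 10 cell surface proteoglycans 4 rose and 6 fell. Itgb8, an integrin that activates TGF-beta, rose by 1.45. In the neural adhesion list 22 of 40 rose and 14 fell, and Slit3, a guidance ligand, rose by 1.41. Growth factors and their receptors were split, 16 higher and 20 lower of 45. Fgf18 rose by 1.65, next to Fgf10, while Fgfr1 and Fgfr2 fell by 3.16 and 1.05.

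Single factors of development and imprinted genes changed much, without a shift of their lists. Of 29 Hox genes 7 rose and 11 fell (24.1% and 37.9%, beside 39.9% and 32.6% of all tested genes). Their median was -0.04, which was 0.02 with the neighbours subtracted. Hoxb9 fell from 8.15, 7.84 and 8.17 to 1.9, 2 and 2.14 RPKM. Of 34 other developmental factors 15 rose and 12 fell: Irx1, an Iroquois homeobox factor, measured 7.89, 7.84 and 8.74 RPKM and 0.835, 0.846 and 0.771 RPKM, and Sox9, a factor of progenitors and cartilage, 1.42, 1.49 and 1.42 RPKM and 0.0934, 0.096 and 0.069 RPKM. Both passed the filter only through the parental libraries, which by itself sets the 2 groups apart. Of 36 polycomb and methylation genes 11 rose and 13 fell, with Phf19, a PRC2 subunit, at -1.16 and Dnmt3a, a DNA methyltransferase, at 0.81. Phf19 passed the filter only through the parental libraries. It lies among lower neighbours and stood at -0.87 with these subtracted. Of 11 histone genes 6 rose and 2 fell, with the limit on near-identical copies given for H1f2.

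Imprinted genes are expressed from 1 parental allele. Of 14 tested 5 rose and 4 fell (35.7% and 28.6%, beside 39.9% and 32.6% of all tested genes). Among 8 expressed from the paternal allele 2 rose and 4 fell. Ndn and Snrpn belong to the same imprinted cluster, the mouse counterpart of the Prader-Willi region, and went opposite ways. Ndn was lost, as given above, whereas Snrpn, a spliceosome protein gene, rose from 1.07, 0.907 and 1.12 to 4.05, 4.14 and 4.11 RPKM. Peg3, a zinc finger gene, rose from 4.49, 4.57 and 4.09 to 11.1, 9.43 and 10.6 RPKM. Igf2, the fetal growth factor, fell from 5.85, 6.14 and 6.14 to 0.711, 0.781 and 0.765 RPKM. Ndn and Igf2 passed the filter only through the parental libraries, and in Snrpn and Peg3 the groups did not overlap. Snrpn shares its transcript with Snurf, and Peg3 overlaps the antisense Peg3os, and since strand use in the counting is not given, reads of such pairs cannot be told apart.

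Neighbouring genes shifted together in parts of the genome. Along the RefSeq gene order, the running median of the log2 fold change over 51 tested genes, less the median of all genes, passed 0.25 in size in 46 stretches, 17 lower and 29 higher, with 1873 genes (15.1% of those tested). It ran from -0.55 to 0.51. The stretches held 98 of the 557 genes changed 2-fold (17.6%), so that genes with large changes were about as frequent in them as elsewhere. In the 17 stretches of at least 30 genes, 79.2% of the 1231 genes in lower stretches were called lower and 80.3% of the 442 genes in higher stretches called higher. The longest, from Ddit4 to Kitl, had 270 tested genes, 213 lower and 21 higher, with medians of -0.34, -0.31 and -0.34 in the 3 clone 1 libraries. That from Acbd5 to Acvr2a had 203 genes, with -0.32, -0.33 and -0.32. Higher stretches included Akr7a5 to Slc35e2 (118 genes, 0.32, 0.33 and 0.30) and Sf3b3 to Taf5l (100 genes, 0.41, 0.44 and 0.38). In Gm10644 to 4921524J17Rik 41 of 43 genes were lower and 0 higher. In Castor1 to Ccm2 34 of 38 genes were higher and 3 lower, and in Clk4 to Fnip1 30 of 35 were higher and 2 lower. In each of these the 3 clone 1 libraries lay close together beside the size of the shift. The stretches were chosen by these fold changes, so the counts within them are a description. What sets the stretches was not tested.

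**Figure D4:**
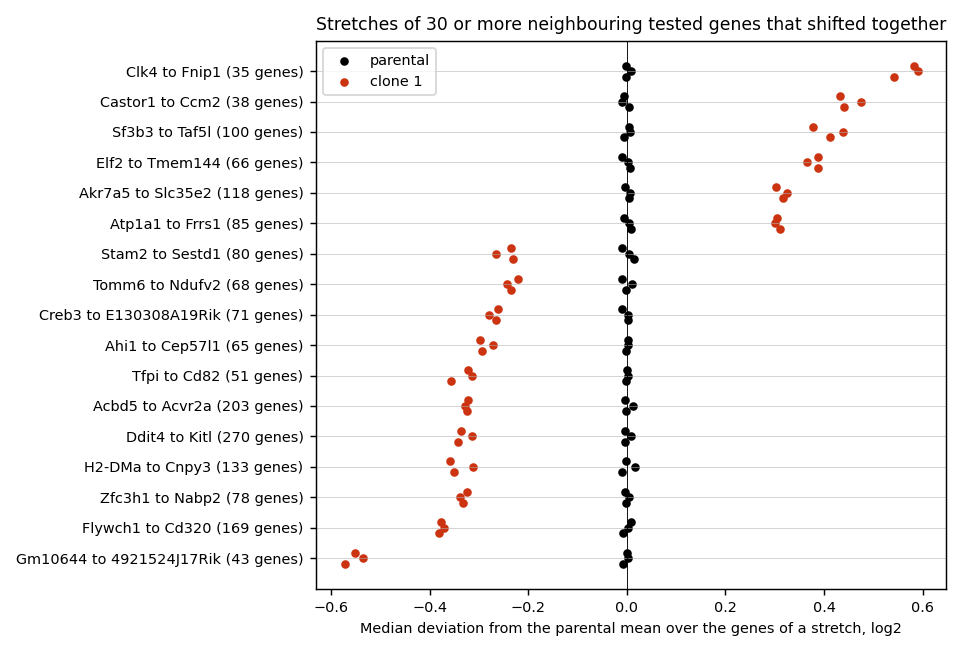
Rows are the 17 stretches of at least 30 neighbouring tested genes, named by their first and last gene, and the x axis is the median log2 deviation of their genes from the parental mean, with 1 point per library (black parental, red clone 1). Parental points stay near 0, and the clone 1 points of a stretch lie close together, from about -0.55 for Gm10644 to 4921524J17Rik to about 0.57 for Clk4 to Fnip1.

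The stretches bear on the genes of antigen presentation, which lie close together. MHC class I genes present peptides to cytotoxic T cells. In clone 1, 7 of the 20 class I genes were higher and 9 lower (35% and 45%, beside 39.9% and 32.6% of all tested genes). Their median was -0.03, and 11 of the 20 lie in stretches, among them the one from H2-DMa to Cnpy3 with medians of -0.35, -0.31 and -0.36. With the neighbours subtracted 15 were higher and 1 lower, with a median of 0.15. H2-T23 stood at -0.52 and then -0.18, and H2-T22 at -0.34 and then 0.02. Psme1 and Psme2, proteasome activators outside the stretches, rose by 0.35 and 0.34. Of 8 class II genes 4 were higher and 2 lower, and 5 and 1 with the neighbours subtracted. H2-Aa, a class II chain, stood at 0.43 and then 0.71, and its invariant chain Cd74 at 0.63 and 0.43. The direction of the class I list thus turned with the setting. H2 genes include near-identical copies among which reads could have been split.

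Clone 1 was then set beside clone 19, the other Cdk8 -/- clone of the series. Its own change against the same parental libraries is given side by side, and the difference clone 1 minus clone 19 was tested with limma over the same 12433 genes. Of these 5353 (43.1%) differed between the clones. Among the 557 genes changed 2-fold in clone 1, 337 (60.5%) differed between the clones. Of those among the 337 that have a name, the rise was larger in clone 1 in 122 and the fall in 126. In 29 and 40 it was smaller. These genes were chosen by their change in clone 1, which favours larger values there. For 10 of the 557 clone 19 was not called against the parental line, 5 of which differed between the clones, and for 0 was it called in the opposite direction.

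Some falls of clone 1 were small or absent in clone 19. Ccn2, the matricellular protein CTGF and a target of TGF-beta and YAP, measured 11.7, 11.3 and 10.3 RPKM in parental cells, against 1.9, 1.75 and 2.04 RPKM for clone 1 and 13.1, 10.5 and 12.3 RPKM for clone 19. Clone 1 thus lay below both other groups in every library, at -2.38 ± 0.08 (SE) against clone 19 on the log2 scale (adjusted p = 5.44e-08, limma). Cxcl9, a chemokine of interferon responses, measured 5.36, 5.59 and 5.38 RPKM in parental cells, 1.24, 1.43 and 1.47 RPKM for clone 1 and 5.17, 4.71 and 4.69 RPKM for clone 19. Krt7 stood at 15.6, 13.8 and 15.2 RPKM in clone 19, nearer to its parental values than to those of clone 1. Ndn, lost in clone 1, was at 4.21, 3.46 and 5.1 RPKM in clone 19, about 0.5 of the parental level. Its difference between the clones was -3.18 ± 0.11 (SE), a size that depends on the 0.5 added since clone 1 is near 0. Trf, the iron carrier transferrin, measured 24.4, 26.1 and 26.8 RPKM, then 3.04, 3.48 and 3.14 RPKM for clone 1 and 13.2, 11.9 and 13.4 RPKM for clone 19. C2, a complement protease, measured 10.9, 10.6 and 9.82 RPKM, then 1.25, 1.35 and 1.29 RPKM and 5.11, 4.64 and 5.17 RPKM. Mdk was at 3.83, 3.49 and 4.13 RPKM in clone 19. In these 3 genes both clones were below the parental line and clone 1 was lower still, with differences from clone 19 of -1.84, -1.61 and -1.67 on the log2 scale.

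Rises that were larger in clone 1 took in the imprinted genes. Peg3 was at 5.66, 6.34 and 5.24 RPKM in clone 19 and Snrpn at 2.36, 2.54 and 2.07 RPKM, both between the parental and the clone 1 values, with differences of 0.80 ± 0.07 and 0.71 ± 0.08 (adjusted p = 1.94e-05 and 4.56e-05, limma). Their partners Peg3os and Snurf differed by 0.77 and 0.73. Klhl13, an adaptor of a ubiquitin ligase, measured 3.21, 3.22 and 3.51 RPKM in parental cells, 7.51, 7.85 and 7.79 RPKM for clone 1 and 3.98, 4.4 and 4.37 RPKM in clone 19. Tmem47 and Fndc3c1 were higher in clone 1 by 0.74 and 0.67. Of the 30 largest changes as chosen above, 8 did not pass the test between the clones. For Casp1, Map2, Sorcs1, Sdc3, Ackr3 and Lrrc32 the differences ran from -0.05 (Casp1) to 0.08 (Ackr3), with SEs of 0.05 to 0.09. For Apln the difference was -0.20 ± 0.09 (SE) and for Mir1895 0.42 ± 0.28. Serpinf1 differed by -0.24 and Chl1 by 0.61. The small nucleolar RNA genes Snord64 (1.34) and Snord1b (-1.43) also passed, on values of 0 to 4.15 RPKM that scatter widely within each group. For the stretches, the clone 19 medians were -0.17 for Flywch1 to Cd320 and -0.15 for H2-DMa to Cnpy3, beside -0.38 and -0.34 in clone 1, and -0.31 for Ddit4 to Kitl beside -0.33.

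**Figure D5:**
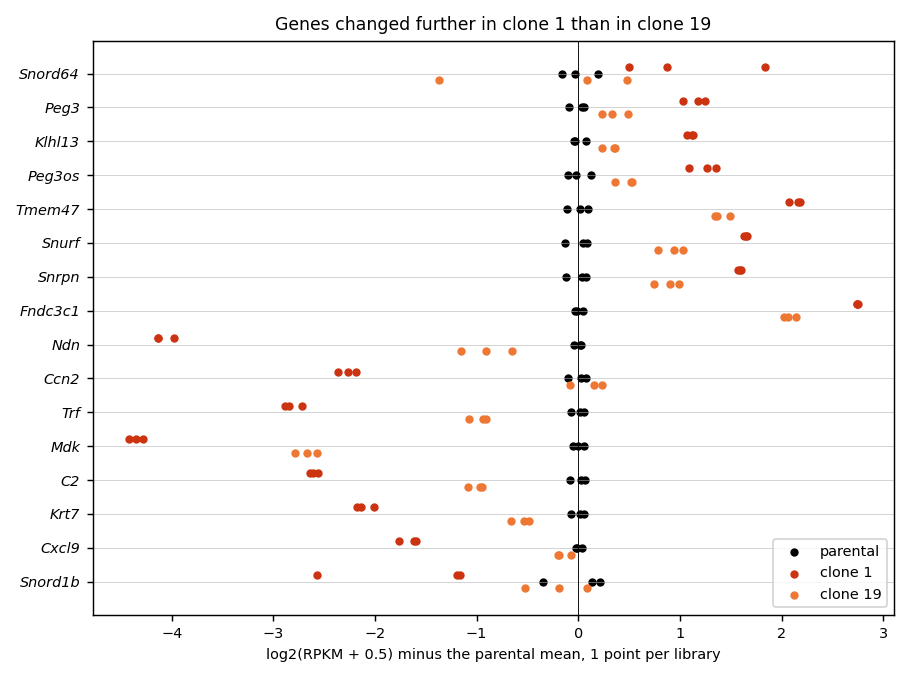
Each point is 1 library, with its log2(RPKM + 0.5) minus the parental mean on the x axis and genes in rows. The genes are the 8 with the largest positive and the 8 with the largest negative difference clone 1 minus clone 19. They were taken from genes with a name that changed 2-fold in clone 1. Black points are parental, red clone 1 and orange clone 19 libraries. For Ccn2 the clone 19 points lie with the parental ones, and for Ndn, Trf and C2 they lie between both other groups.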

How the data were processed

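The authors deposited RPKM values, that is reads scaled to gene length and library size, for 28059 Entrez gene IDs in every library. The submitters' processing notes name GSNAP, DESeq and NCBIM37, with no versions or roles. No source used here gives the annotation or the counting rule. Per the labels' protocols, RNA was purified on columns and sequenced from TruSeq libraries. An RPKM depends on the composition of a library's RNA and is less reliable for short or overlapping genes and near-identical copies.

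IDs were named through RefSeq (24998) and GENCODE M21 (15), and 3046 had no name, 958 of them tested. RefSeq coordinates of GRCm38.p6 serve only for gene order and the printed promoters. Relative depth was estimated from low values, and no count test was run. Genes passing the filter were tested with limma 3.58.1 (R 4.3.3) on log2(RPKM + 0.5), using a mean-variance trend and Benjamini-Hochberg adjustment over all 12433 genes. Clone 1 minus clone 19 came from a model of all 9 libraries. Of 1449 entries in 43 gene lists 1447 were in the table and 1039 tested. On simulated data with 12433 genes, 82% of changes of 0.25 were recovered for this comparison, 92% at 0.5, 96% at 1 and 100% at 2, with 4 false calls among 189. The simulation changed 50 genes at each size and used the spread among these libraries, whereas 72.5% of genes were called in the data. Its rates therefore do not carry over to the calls reported.

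Named genes are the kinase module, the 15 largest changes each way and the 6 largest gains and losses in mean RPKM. The 15 were taken from called genes with a name whose groups do not overlap. Up to 10 genes off or on in clone 1 and up to 8 each way that differ from clone 19 were added. So were up to 2 members of each list in each direction and the ends of stretches. A few genes and 1 list are not reported here. Further list members were named for their role after their values were seen. Members and lists were chosen with earlier results of these data known. Alternatives were pseudocounts of 0.1 and 1, filters of 0 and 3 RPKM, scaling by the median ratio, a fit without trend, a fit of all 9 libraries, a replicate block, subtraction of the median change of the 50 nearest genes, and each library left out.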

Additional observations from a re-analysis of the deposited data

Results flagged for a closer look

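The change of 9 genes differed between the knockout clones by the test of clone 1 minus clone 19 (limma, adjusted p under 0.05) and was at least 2-fold in clone 1. They are those past 1 on the log2 scale among the 8 genes with a name and the largest difference in each direction. Their sizes therefore lean toward extreme values. All were chosen by their change in the same clone 1 libraries. Ndn, Mdk and Snord1b passed the filter only through the parental libraries and Snord64 only through those of clone 1. For these genes the difference is a description. On the log2 scale Ndn differed by -3.18, Ccn2 by -2.38, Trf by -1.84, Mdk by -1.67, C2 by -1.61, Krt7 by -1.55 and Cxcl9 by -1.51, with every clone 1 library below every clone 19 library. Snord64 differed by 1.34 and Snord1b by -1.43, with SEs of 0.43 and 0.33, far wider than the 0.06 to 0.11 of the other 7 genes.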

How the results depend on the processing

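All counts of called genes kept within 1.5 times of the values reported, in each alternative run. Genes called higher ranged from 4154 (neighbours subtracted) to 5355 (no filter) and genes called lower from 3432 (filter at 3 RPKM) to 4789 (no filter). With median-ratio scaling 4422 were higher and 4483 lower. The 2-fold counts moved with the pseudocount, from 301 and 446 at 0.1 to 172 and 239 at 1, and the filter at 3 RPKM left 175 and 224. Leaving out each library gave 4638 to 4848 higher and 3768 to 3992 lower, 222 to 229 and 329 to 347 at 2-fold, and, without each library of a clone in turn, 302 to 326 2-fold genes that differ between the clones. Cdk8 ran from -0.61 to -0.70 and was called in all settings. Of the 9016 calls, 6801 kept their call and direction with the neighbouring genes subtracted, 1873 were not called and 342 were called in the opposite direction. All 557 genes of the 2-fold set kept their call and direction, but not always their size. In that setting 182 genes were called at 2-fold or more higher and 333 lower, beside 223 and 334 in the main fit.

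Replicate numbers did not pair the libraries: deviations of same-numbered parental and clone 1 libraries correlated at 0.13, 0.06 and 0.06, below 0.1 in 2 of 3, and clone 1 replicate 2 correlated more with parental replicate 3 (0.07) than with its own number. With the number as a replicate block 4998 genes were higher and 4051 lower, 224 and 335 at 2-fold, and Med13 was called lower (-0.14).

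Of 188 named genes, the direction of 8 turned with the neighbours subtracted: Hsp90ab1 (0.00428), Tubb5 (0.0444), Eef2 (0.0934), H2-T22 (0.0245), H2-DMb1 (0.00798), Ndufs7 (0.0687), Ndufs3 (0.0192) and Axin2 (-0.111). Of these, only Eef2 was still called in that setting. Other calls that ended under at least 1 setting were those of Nrarp, Gpx1, Esrp2, Cd68, Tnnt2 and Actg2. Axin2 was also not called without parental replicate 2, parental replicate 3 or clone 1 replicate 2. The cause was not tested. Depth limits the genes near 0, where 1 read decides a value.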
